A study of Homo sapiens with 6 samples.

Results

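The mitochondrial ribosomal proteins are the proteins of the ribosome that works inside mitochondria, and their genes were examined here in Molm13 cells, a human acute myeloid leukemia line with a rearranged MLL gene. The genes were chosen by symbol alone, as every row of the count table that starts with MRPL or MRPS and a number, which gave 78 genes of 19845 symbols, 49 named for the large subunit (MRPL) and 29 for the small subunit (MRPS). All 6 libraries came from Molm13 cells that stably express the Cas9 nuclease, were infected with a lentiviral guide vector, ipUSEPR, and were selected in puromycin. In 3 of them the guides were controls against non-essential sequences (sgCtrl #1, #2 and #3), and in the other 3 the guides targeted COX4I1, a nuclear-encoded subunit of Complex IV of the respiratory chain (sgCOX4I1 #1, #2 and #3), each with a guide sequence of its own. Polyadenylated RNA of whole cultures was sequenced, so that a smaller share of edited cells and less RNA per edited cell cannot be told apart. Nothing in the labels gives separate starting cultures, and p-values then measure only the spread between these libraries. The comparison asks whether the mRNAs of the mitochondrial translation machinery differed between cells with a disrupted Complex IV subunit and control cells.

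Mitochondria carry a small genome that encodes core subunits of the respiratory chain and of ATP synthase, and they translate its mRNAs on ribosomes of their own. The rRNAs of these ribosomes come from mitochondrial DNA, whereas every ribosomal protein is encoded in the nucleus, made in the cytosol and imported. Many of these proteins have a counterpart in bacterial ribosomes, others were added during the evolution of mitochondria, and the mammalian particle is rich in protein for its RNA. The catalytic subunits of Complex IV are among its products, and the COX4I1 protein joins them during assembly. Acute myeloid leukemia cells are known to be sensitive to drugs that block mitochondrial translation.

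The deposited counts totalled 17241014 to 30861943 per library, and the genes of interest took 0.447% to 0.520% of them. COX4I1 mRNA was 513, 502 and 463 counts per 1000000 counts (CPM, with library sizes scaled by edgeR's TMM factors) in sgCtrl #1, #2 and #3 against 132, 378 and 133 CPM in sgCOX4I1 #1, #2 and #3. All 3 sgCOX4I1 libraries lay below the controls, with sgCOX4I1 #2 the closest to them, and the log2 fold change was -1.21 (SE 0.29, adjusted p = 0.0512 by edgeR's quasi-likelihood F test after Benjamini-Hochberg correction). The cells carried the mRNAs of all 8 myeloid markers examined, which summed to 3423 to 4362 CPM in sgCtrl and 3947 to 5345 CPM in sgCOX4I1. The 9 markers of lymphoid, erythroid, epithelial and stromal cells summed to 0.436 to 1.03 CPM and 0.465 to 0.757 CPM, and HBB and EPCAM had 0 counts in every library. MPO, the granule enzyme myeloperoxidase, was the 1 myeloid marker that fell past the threshold (log2 fold change -1.06, adjusted p = 1.6e-05 in the same edgeR test). Of the 8, 4 had a log2 fold change above 0 and 4 below, and the lysozyme gene LYZ, which has the largest share of the sums, had a mean of 1590 ± 479 CPM in sgCtrl beside 2717 ± 600 CPM in sgCOX4I1 (SD, n = 3 per group, log2 fold change 0.77, adjusted p = 0.0534 by edgeR).

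The promoters of these genes carry short elements known from housekeeping genes, and a few stretches are printed here to show where these elements lie before their shares are counted. Each sequence runs from 75 bases before the RefSeq transcription start to 25 bases after it, 5′ to 3′ on the strand of the gene, and was taken from RefSeq on GRCh38.p14. Capitals mark CCGGAAG, the core bound by ETS family factors such as GABPA, and AAGATGGCG, the element bound by YY1. MRPL27 (chr17:50373160-50373259, minus strand) holds the ETS core in 2 places, and MRPS12 (chr19:38930869-38930968, plus strand) holds it close to the start. MRPS10 (chr6:42217837-42217936, minus strand) and MRPS18A (chr6:43687767-43687866, minus strand) hold both elements, with the YY1 element just after the start. MRPL46 (chr15:88467364-88467463, minus strand) and MRPS30 (chr5:44808872-44808971, plus strand) hold the YY1 element alone. MRPL24 (chr1:156741064-156741163, minus strand), the member with the highest fold change, has no match to either in this window.
MRPL27: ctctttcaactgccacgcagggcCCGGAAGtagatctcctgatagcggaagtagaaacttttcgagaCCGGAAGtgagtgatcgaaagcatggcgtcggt
MRPS12: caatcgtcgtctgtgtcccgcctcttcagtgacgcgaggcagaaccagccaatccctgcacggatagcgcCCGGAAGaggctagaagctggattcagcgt
MRPS10: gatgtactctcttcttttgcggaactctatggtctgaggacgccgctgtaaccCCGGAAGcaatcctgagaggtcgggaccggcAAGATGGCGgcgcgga
MRPS18A: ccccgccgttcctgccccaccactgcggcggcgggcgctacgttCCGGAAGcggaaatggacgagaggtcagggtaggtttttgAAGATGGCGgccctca
MRPL46: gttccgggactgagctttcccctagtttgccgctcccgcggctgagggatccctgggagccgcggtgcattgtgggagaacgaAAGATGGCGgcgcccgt
MRPS30: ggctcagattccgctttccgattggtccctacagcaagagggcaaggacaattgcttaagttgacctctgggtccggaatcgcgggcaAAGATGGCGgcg
MRPL24: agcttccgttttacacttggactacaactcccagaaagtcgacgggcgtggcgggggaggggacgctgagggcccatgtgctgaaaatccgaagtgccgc

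No mRNA of a mitochondrial ribosomal protein passed the test between sgCOX4I1 and sgCtrl cells. Of the 78 genes, 77 passed the filter on low counts, all 49 MRPL and 28 of 29 MRPS. Of these 77, 0 had an adjusted p under 0.05 in edgeR's quasi-likelihood F test after Benjamini-Hochberg correction over the 11861 genes tested, where 247 genes (2.08%) did, 126 higher and 121 lower in sgCOX4I1, and 24 genes (0.202%) also reached a 2-fold difference. At an unadjusted p under 0.05 there were 2 members, or 2.6%, against 17.3% of all genes tested. DESeq2 and limma-voom also gave 0 members at an adjusted p under 0.05 and 2 at an unadjusted p under 0.05. The shares of all genes at these limits were 2.12% and 17.4% in limma-voom. In DESeq2, which was run without the filter on 15168 genes and all 78 members, they were 2.82% and 12.3%. The CPM values of the groups did not overlap for 3 members, or 3.90%, against 21.6% of all genes tested. In 2 of these the sgCOX4I1 libraries were the higher ones (MRPL44 and MRPS2) and in 1 the lower (MRPL42). The fit was also run without sgCOX4I1 #2, the library with the most COX4I1 mRNA among the knockouts. It gave 0 members at an adjusted p under 0.05, where only 0.425% of the genes then tested passed. At an unadjusted p under 0.05 it gave 0 members, against 13.9% of those genes.

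The differences were small as well as uncalled. Log2 fold changes ran from -0.36 (MRPL53) to 0.21 (MRPL24), with 52 of the 77 within 0.1 of no difference and 74 within 0.2. Among all genes tested they ran from -2.61 to 1.89. The 95% interval of the fold change stayed within 1.5-fold in either direction for 74 of the 77 members, or 96.1%, against 77.7% of all genes tested. It stayed within 2-fold for 76, and the exception was MRPL53, whose mean was 2.14 CPM in sgCtrl. The median standard error was 0.095 for the members and 0.105 for all genes tested, on the log2 scale.

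**Figure D1:**
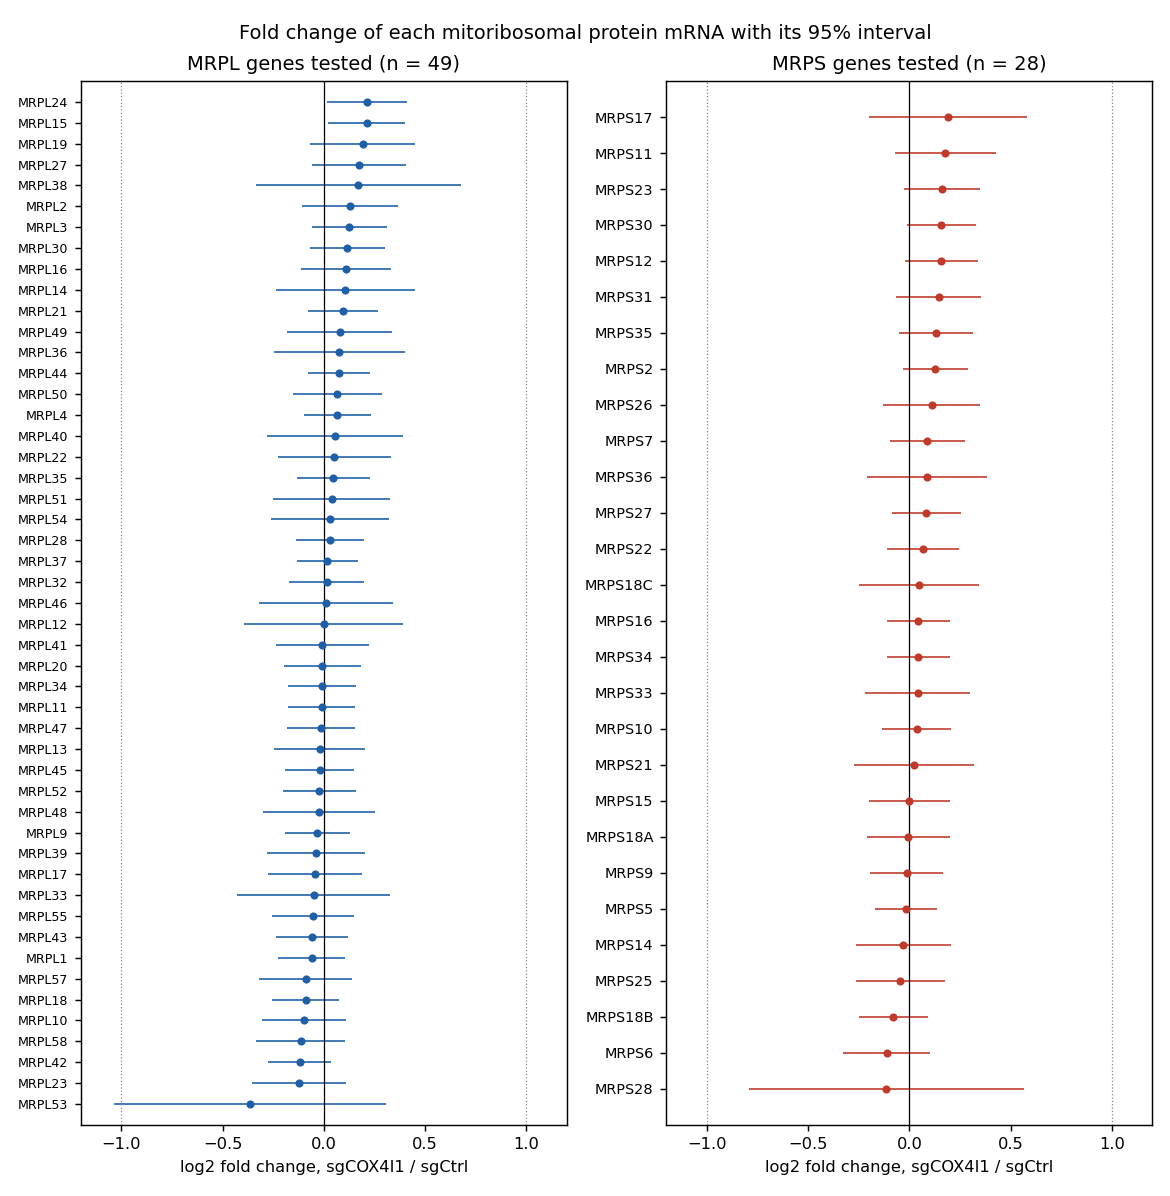
Log2 fold change (sgCOX4I1 over sgCtrl, horizontal axis) of each tested MRPL gene (left, n = 49) and MRPS gene (right, n = 28), with points for edgeR's estimate from 3 libraries per group, bars for its 95% interval and dotted lines at a 2-fold difference. The points lie between -0.36 and 0.21, and the bar of MRPL53 is the only one to cross a dotted line.

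Among the large subunit genes, the smallest p belonged to MRPL15 and MRPL24, both of which have bacterial counterparts. MRPL15, a protein of the core of the subunit, was 93.0, 78.8 and 83.9 CPM in sgCtrl #1, #2 and #3 against 96.8, 109 and 90.9 CPM in sgCOX4I1 #1, #2 and #3. The groups overlapped, since sgCtrl #1 lay above sgCOX4I1 #3, and the log2 fold change of 0.21 (SE 0.088) had an adjusted p of 0.231 in edgeR's quasi-likelihood F test after Benjamini-Hochberg correction. MRPL24, which sits by the exit of the tunnel through which the new protein leaves, was 58.2, 54.3 and 47.6 CPM in sgCtrl against 64.5, 64.5 and 56.6 CPM in sgCOX4I1. Here sgCOX4I1 #3 lay below sgCtrl #1, and the log2 fold change was 0.21 (SE 0.092, adjusted p = 0.248, edgeR with Benjamini-Hochberg adjustment). The gene lies on the minus strand of chromosome 1 (chr1:156737303-156741590, GRCh38) and shares no exonic base with another gene of its strand.

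MRPL42, a subunit specific to mitochondria, was the large subunit gene with separate groups in the downward direction. It measured 110, 104 and 105 CPM in sgCtrl against 102, 95.04 and 96.1 CPM in sgCOX4I1, a log2 fold change of -0.12 (SE 0.072) with an adjusted p of 0.417 in the same edgeR test. The groups stood apart by little, since sgCtrl #2 and sgCOX4I1 #1 differed by less than the spread within sgCOX4I1. MRPL44, a mitochondria-specific subunit related to an RNase III fold, measured 75.6, 78.7 and 78.3 CPM in sgCtrl against 84.4, 80.5 and 79.7 CPM in sgCOX4I1, a log2 fold change of 0.07 (SE 0.071).

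MRPL27, a bacterial-type protein that reaches toward the site of peptide bond formation, measured 33.1, 33.9 and 31.2 CPM in sgCtrl against 42.5, 37.0 and 31.4 CPM in sgCOX4I1 (log2 fold change 0.17, SE 0.11). Its sgCOX4I1 libraries spread over a wider range than its controls, with #1 the highest and #3 within the control range. MRPL19, near the face that meets the small subunit, likewise had its highest value in sgCOX4I1 #1, with 39.3, 32.0 and 33.2 CPM in sgCtrl against 47.2, 38.0 and 34.3 CPM in sgCOX4I1 (log2 fold change 0.19, SE 0.12). On the low side, MRPL23, a protein at the exit of the tunnel, was 57.4, 60.5 and 51.6 CPM in sgCtrl against 56.7, 56.4 and 43.0 CPM in sgCOX4I1. Its log2 fold change of -0.12 (SE 0.11) rested on sgCOX4I1 #3, and without that library it was 0.0018. MRPL53, next to the stalk that recruits translation factors, was at 1.80, 2.17 and 2.46 CPM in sgCtrl against 1.16, 1.34 and 2.37 CPM in sgCOX4I1, and its log2 fold change of -0.36 (SE 0.31) was -0.79 without sgCOX4I1 #3.

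Among the small subunit genes, the lowest p was that of MRPS30, followed by MRPS12, MRPS23 and MRPS2. MRPS12, the counterpart of the bacterial protein that monitors codon and anticodon pairing, measured 108, 112 and 98.2 CPM in sgCtrl against 121, 127 and 107 CPM in sgCOX4I1. Only sgCOX4I1 #3 lay within the range of the controls, and the log2 fold change was 0.16 (SE 0.085, adjusted p = 0.362 in edgeR's quasi-likelihood F test after Benjamini-Hochberg correction). MRPS2, which also has a bacterial counterpart, was 58.7, 59.2 and 54.7 CPM in sgCtrl against 64.3, 63.1 and 61.3 CPM in sgCOX4I1. All of its sgCOX4I1 libraries exceeded all controls, with a log2 fold change of 0.13 (SE 0.075, adjusted p = 0.404, edgeR with Benjamini-Hochberg adjustment). MRPS23, a mitochondria-specific subunit, was 51.3, 44.4 and 44.1 CPM against 55.1, 51.3 and 49.6 CPM, so the groups overlapped at sgCtrl #1 (log2 fold change 0.16, SE 0.087). MRPS35, also specific to mitochondria, was 78.8, 70.9 and 73.6 CPM against 90.9, 77.3 and 76.5 CPM (log2 fold change 0.13, SE 0.086).

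The other small subunit genes named for their fold change or for failing the filter had overlapping groups or no test. MRPS11, at the platform of the subunit, was 29.6, 29.8 and 24.1 CPM in sgCtrl against 36.0, 30.1 and 28.2 CPM in sgCOX4I1 (log2 fold change 0.18, SE 0.12). MRPS17 stayed between 5.07 and 8.20 CPM in all libraries, with sgCtrl #3 above 2 of the 3 sgCOX4I1 libraries, although its log2 fold change of 0.19 (SE 0.18) was the highest among MRPS genes. The lowest was MRPS28, at 3.60, 1.74 and 1.62 CPM in sgCtrl against 2.45, 1.92 and 2.01 CPM in sgCOX4I1, with a log2 fold change of -0.12 (SE 0.32) that was 0.34 without sgCtrl #1. MRPS6, the counterpart of a bacterial protein of the platform, was 23.5, 22.6 and 22.8 CPM in sgCtrl against 19.6, 22.9 and 21.3 CPM in sgCOX4I1 (log2 fold change -0.11, SE 0.10). MRPS24, whose product is the counterpart of bacterial uS3 at the mRNA entry, had 4, 6 and 6 counts in sgCtrl and 4, 9 and 11 counts in sgCOX4I1 and did not pass the filter, so it has no test.

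The genes named for each subunit were then set side by side. Of the 49 tested MRPL genes, 25 had a log2 fold change above 0 and 24 below, with a median of 0.0095 and quartiles of -0.04 and 0.08. Of the 28 tested MRPS genes, 19 were above 0 and 9 below, with a median of 0.05 and quartiles of -0.0071 and 0.13. Over all genes tested, 5865 were above and 5996 below, with a median of -0.0023 and quartiles of -0.12 and 0.12. The MRPL median changed sign with single libraries, being -0.06 without sgCtrl #3 (15 of 49 above 0), -0.04 without sgCOX4I1 #1, and 0.07 without sgCOX4I1 #3 (41 of 49 above 0). The MRPS median stayed above 0 whichever library was left out, from 0.02 without sgCtrl #3 to 0.12 without sgCtrl #1.

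Summed over the genes named for a subunit, the libraries of the groups also overlapped. The MRPL sum was 3035, 2851 and 2641 CPM in sgCtrl #1, #2 and #3 against 3068, 2919 and 2676 CPM in sgCOX4I1 #1, #2 and #3. The MRPS sum was 2012, 1980 and 1849 CPM in sgCtrl against 2126, 2011 and 1909 CPM in sgCOX4I1. The ratio of the MRPL to the MRPS sum was 1.51, 1.44 and 1.43 in sgCtrl and 1.44, 1.45 and 1.40 in sgCOX4I1, which are overlapping ranges. These sums go by symbol and are not exact subunit values, since MRPS30, MRPS18A and MRPS36, described below, do not belong to the small subunit.

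**Figure D2:**
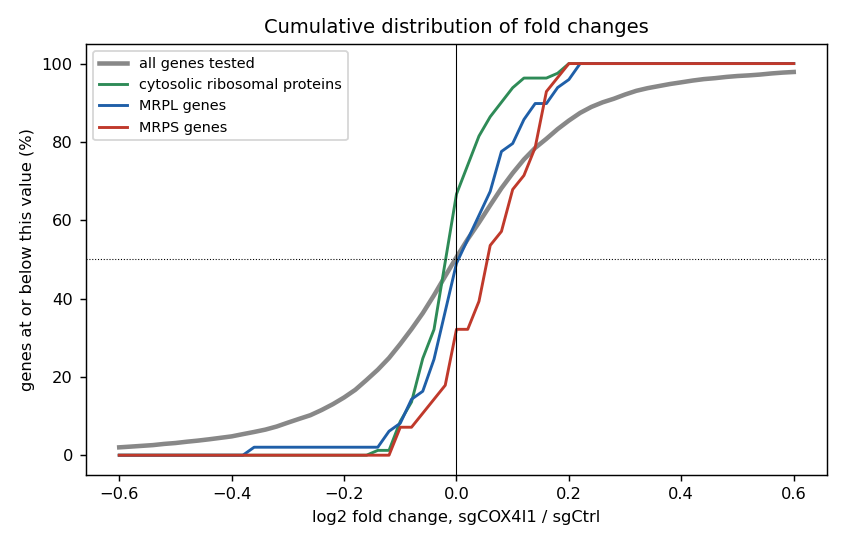
Share of genes (percent, vertical axis) whose log2 fold change of sgCOX4I1 over sgCtrl is at or below the value on the horizontal axis, for 49 MRPL genes, 28 MRPS genes, 81 cytosolic ribosomal protein genes and all 11861 genes tested. The curves of the ribosomal protein genes are steeper than that of all genes, and their medians lie at 0.0095 for MRPL, 0.05 for MRPS and -0.02 for cytosolic ribosomal proteins.

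Within each subunit the genes were grouped by where their products sit and whether bacteria have them, and no group held a gene past the test. The 3 proteins of the stalk that binds translation factors had log2 fold changes of -0.10 (MRPL10), -0.01 (MRPL11) and -0.0017 (MRPL12). The 6 proteins listed for the exit tunnel (MRPL17, MRPL22, MRPL23, MRPL24, MRPL45 and MRPL47) had a median of -0.02, with 2 above 0 and 4 below. MRPL4, which also reaches into the tunnel, was not in that list and had 0.06 (SE 0.077). The 7 proteins listed for the central protuberance, where the subunits meet above the tRNAs, were MRPL18, MRPL27, MRPL38, MRPL40, MRPL46, MRPL48 and MRPL55. They had a median of 0.0095, with 4 above 0 and 3 below. MRPL58, described below, was not in that list and had -0.11 (SE 0.10). Large subunit proteins with a bacterial counterpart split into 16 above 0 and 14 below (30 genes, median 0.02), and those specific to mitochondria split evenly, 10 and 10 (20 genes, median 0.0024). The latter list follows the place of the protein and not the symbol, and it includes MRPS30. In the small subunit, 9 of 15 tested genes with a bacterial counterpart were above 0 (median 0.04), and so were 8 of 10 specific to mitochondria (median 0.08). None of the 10 mitochondria-specific small subunit genes had an unadjusted p under 0.05.

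Several symbols do not tell where the protein belongs, and these genes were read on their own. MRPS30 and MRPS18A are named for the small subunit, but both proteins were placed in the large subunit once its structure was known. MRPS30 (chr5:44808947-44820428, plus strand) was 95.3, 83.9 and 82.3 CPM in sgCtrl against 99.7, 100 and 92.1 CPM in sgCOX4I1, and sgCtrl #1 was the control that lay above sgCOX4I1 #3. Its log2 fold change of 0.16 (SE 0.080) had an adjusted p of 0.333 in edgeR's quasi-likelihood F test after Benjamini-Hochberg correction. MRPS18A, MRPS18B and MRPS18C are 3 related genes, of which the C form takes the place of the bacterial protein, the B form sits elsewhere in the small subunit and the A form sits in the large one. MRPS18A was 51.8, 48.2 and 43.2 CPM in sgCtrl against 49.2, 50.9 and 42.9 CPM in sgCOX4I1, nearly the same range (log2 fold change -0.0048, SE 0.095). MRPS18B was 132, 122 and 124 CPM against 129, 119 and 109 CPM (log2 fold change -0.08, SE 0.079). MRPS18C was 31.5, 25.5 and 20.1 CPM against 29.0, 25.98 and 24.8 CPM, with the sgCOX4I1 libraries inside the control range (log2 fold change 0.05, SE 0.14). All 3 overlapped between groups, and per length of transcript the B form was highest at 87.7 CPM per kb, beside 41.0 for the A form and 16.9 for the C form. MRPS36, whose product is now known as a component of the oxoglutarate dehydrogenase complex and not of the ribosome, was 17.9, 14.6 and 13.3 CPM in sgCtrl against 17.996, 16.6 and 14.01 CPM in sgCOX4I1 (log2 fold change 0.09, SE 0.14). MRPL58, a large subunit protein that releases stalled peptides, was 32.9, 32.1 and 28.0 CPM against 30.7, 29.6 and 25.7 CPM (log2 fold change -0.11, SE 0.10).

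Medians over the members differed more between libraries of 1 group than between the groups, and libraries #1 stood high and libraries #3 low in both groups. Each gene was centred on its mean log2 CPM over the 6 libraries, and the median over MRPL genes was then 0.09, 0.01 and -0.10 in sgCtrl #1, #2 and #3 and 0.11, 0.0081 and -0.09 in sgCOX4I1 #1, #2 and #3. For MRPS genes these medians were 0.06, -0.0023 and -0.14 in sgCtrl and 0.11, 0.04 and -0.06 in sgCOX4I1. Library #1 exceeded library #3 for 44 of 49 MRPL genes in sgCtrl and 46 of 49 in sgCOX4I1, and for 24 and 25 of 28 MRPS genes, against 51.6% and 50.03% of all genes tested. MRPL51, a mitochondria-specific subunit, is an example, with 77.1, 63.4 and 50.3 CPM in sgCtrl against 75.1, 62.7 and 57.9 CPM in sgCOX4I1. MRPS21, the counterpart of a bacterial protein near the end of the small rRNA, was 111, 106 and 75.2 CPM in sgCtrl against 118, 93.4 and 85.7 CPM in sgCOX4I1, with a log2 fold change of 0.02 (SE 0.14).

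The mRNAs of the cytosolic ribosome moved in the same direction between libraries #1 and #3, with centred medians of 0.18, 0.01 and -0.16 in sgCtrl and 0.16, -0.06 and -0.15 in sgCOX4I1. So did, by less, the 25% of genes with the shortest transcripts, with both ribosomal protein families taken out (2709 genes left). Their medians were 0.05, 0.03 and -0.05 in sgCtrl and 0.03, 0.02 and -0.06 in sgCOX4I1. Of the 77 tested members, 60 fell under the same length limit. The part of transcript length in this difference between libraries was not tested. The libraries stood alike in both groups, and MRPL51 and MRPS21 had standard errors of 0.13 and 0.14 beside the median of 0.095.

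**Figure D3:**
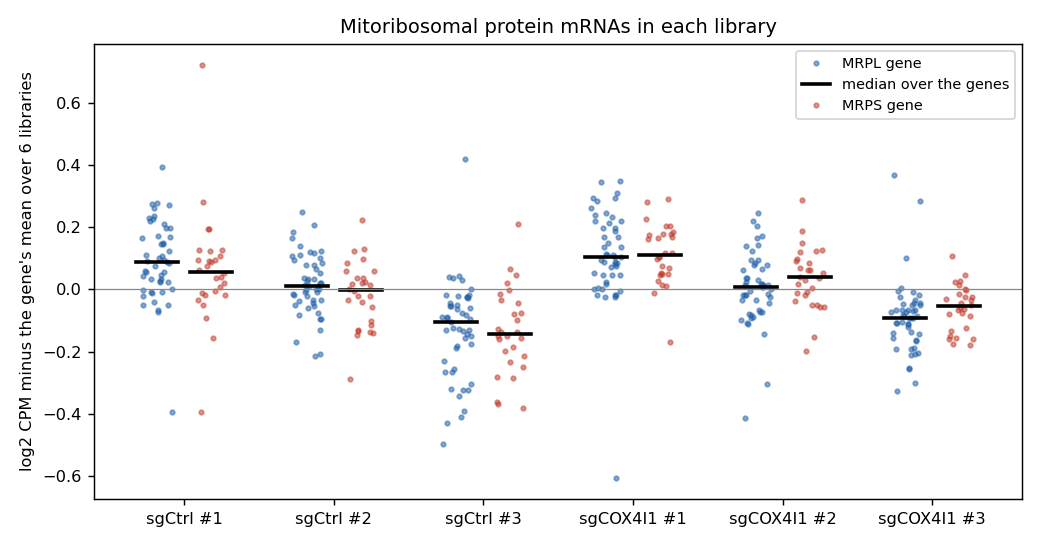
Log2 CPM of each tested MRPL gene (blue) and MRPS gene (red) minus its mean over the 6 libraries (vertical axis), by library, with black bars for the median over the genes of a subunit. The medians stand highest in #1 and lowest in #3 of both groups, at 0.09 and -0.10 for MRPL genes in sgCtrl and 0.11 and -0.09 in sgCOX4I1.

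Levels per length were next compared between genes, as CPM divided by the kilobases of the reference transcript. The tested MRPL genes had a median of 47.1 CPM per kb (quartiles 22.4 and 72.7) and the tested MRPS genes one of 41.2 CPM per kb (quartiles 17.5 and 57.8). At the top were MRPL4 at 135 CPM per kb, MRPS12 at 117, MRPL41 at 115, MRPL18 at 114 and MRPS34 at 113. These 5 genes did not differ between groups past the test. Counts of MRPL4 came to 164, 164 and 156 CPM in sgCtrl against 162, 185 and 159 CPM in sgCOX4I1. MRPL41 showed 64.6, 75.5 and 60.7 CPM against 65.3, 76.5 and 58.3 CPM, and in both groups #2 was the highest. At the bottom of the large subunit were MRPL38 at 2.54, MRPL53 at 3.79 and MRPL19 at 4.77 CPM per kb, and at the bottom of the small one MRPS24 at 0.473, MRPS28 at 2.65 and MRPS17 at 3.79 CPM per kb. The products of these genes are part of the same particle, yet the highest and lowest tested levels per length differed 53.3-fold among MRPL genes and 44.1-fold among MRPS genes.

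Of the 6 lowest genes just named, 5 share at least 20% of their exonic bases with another gene on the same strand, and HTSeq in its default mode discards a read that cannot be given to a single gene. In the GENCODE 44 annotation, 9 of the 78 genes had such an overlap (MRPL2, MRPL12, MRPL33, MRPL38, MRPL53, MRPS5, MRPS17, MRPS24 and MRPS28), and their median was 3.79 CPM per kb (range 0.473 to 68.3). The 60 genes that share no exonic base in this way had a median of 46.6 CPM per kb (range 5.77 to 135), and the 9 that share under 20% one of 26.8 CPM per kb (range 4.77 to 91.9). MRPL53 (chr2:74471982-74472687, minus strand) shares 72.8% of its exonic bases with CCDC142, and MRPL12 (chr17:81703367-81707517, plus strand), at 5.92 CPM per kb, shares 69.5% with an unnamed protein-coding gene. The levels of these 9 genes are uncertain, and the part of the overlap in them was not tested. The annotation used for the counting may differ from GENCODE 44, and it may lack some of the overlapping genes. Overlap with genes on the opposite strand was left out of this grouping, and it reached 79.4% for MRPL53, 50.9% for MRPS18A and 42.8% for MRPS22. Whether it costs reads depends on the strand setting of the counting, which is not known. MRPL19 is long in its reference transcript, at 7825 bases, and shares 19.5% with a long non-coding RNA. MRPS21 has 8 pseudogenes named after it, and MRPL42, MRPL57 and MRPS36 have 5 each. Reads that match a copy as well as the gene may be missing from the counts of these genes.

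**Figure D4:**
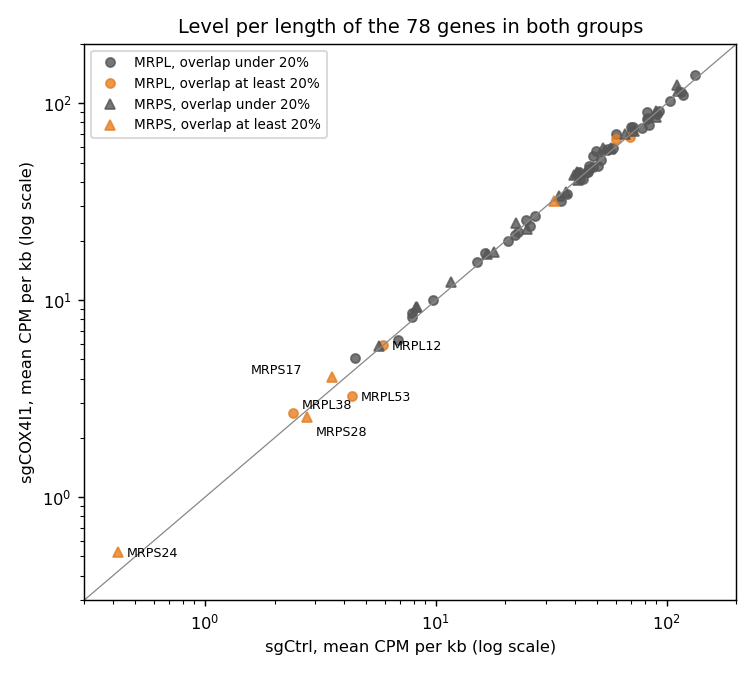
Mean CPM per kilobase of reference transcript in sgCtrl (horizontal axis, log scale) and in sgCOX4I1 (vertical axis, log scale) for all 78 genes, with circles for MRPL, triangles for MRPS, orange for genes that share at least 20% of their exonic bases with another gene on the same strand and a grey line of equality. The genes follow the line, from MRPS24 at 0.419 and 0.526 CPM per kb in sgCtrl and sgCOX4I1 to MRPL4 at 132 and 139. Averaged over all 6 libraries, the orange points have a median of 3.79 CPM per kb.

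The promoter elements printed above were counted in the 69 members with a RefSeq promoter, over 250 bases before the start and 50 after it, on both strands. The ETS core CCGGAAG was present in 29 of 69 (42.0%), in 17 of 42 MRPL (40.5%) and 12 of 27 MRPS promoters (44.4%), against 20.1% of the promoters of 9251 genes tested and 14.4% of the 14585 promoters of the table. The YY1 element AAGATGGCG was present in 13 of 69 (18.8%), again with like shares in both subunits (19.0% and 18.5%), against 4.15% of genes tested. At least 1 of the elements was found in 38 members (55.1%) against 23.3% of genes tested, and both in 4 (5.8%) against 0.984%. GCGCANGCG, the site of NRF1, was present in 13 (18.8%, with 23.8% for MRPL and 11.1% for MRPS) against 15.3%. A match is a description of the letters in this window and not evidence of binding. Members with and without the ETS core had median log2 fold changes of 0.04 and -0.0003. With and without the YY1 element they were 0.02 and 0.03, and with and without the NRF1 site 0.04 and 0.03.

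**Figure D5:**
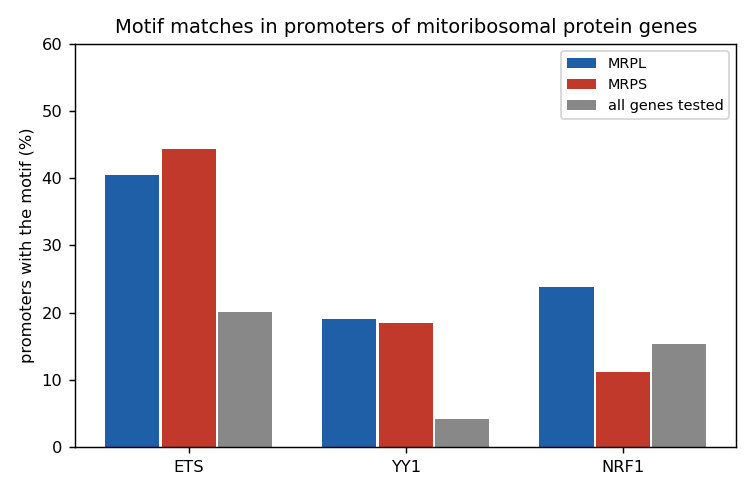
Share of promoters (percent, vertical axis) with a match to the ETS core, the YY1 element or the NRF1 site, for 42 MRPL promoters, 27 MRPS promoters and the promoters of 9251 genes tested. The ETS core was matched in 40.5%, 44.4% and 20.1%, the YY1 element in 19.0%, 18.5% and 4.15%, and the NRF1 site in 23.8%, 11.1% and 15.3%.

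Many of these genes start back to back with a neighbour on the other strand. A start of a protein-coding gene on the opposite strand lay within 1000 bases upstream for 17 of the 78 genes (21.8%), against 10.7% of 11312 protein-coding genes tested. MRPL46 and MRPS11, 1 gene of each subunit, share such a region on chromosome 15, with starts 63 bases apart, and the MRPL46 stretch printed above lies in it. MRPL46 was 31.7, 28.1 and 19.4 CPM in sgCtrl against 30.4, 24.9 and 24.2 CPM in sgCOX4I1 (log2 fold change 0.0095, SE 0.15), beside 0.18 for MRPS11. Other partners encode proteins of the cytosolic ribosome and of Complex I, namely FAU for MRPL49 (6 bases), NDUFS6 for MRPL36 (41 bases) and NDUFB5 for MRPL47 (41 bases), and the mitochondrial seryl-tRNA synthetase SARS2 for MRPS12 (181 bases). The 78 genes lie on 21 chromosomes.

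The rest of the mitochondrial translation pathway was read from lists of known genes, and none held a gene past the adjusted threshold in edgeR's test. The 6 tested proteins of the mitochondrial ribosome and its membrane anchor without an MRP symbol had a median log2 fold change of -0.05, with 2 above 0 and 4 below, and 0 had an unadjusted p under 0.05. OXA1L, which inserts the products into the inner membrane, was 210, 201 and 186 CPM in sgCtrl against 229, 200 and 214 CPM in sgCOX4I1 (log2 fold change 0.11, SE 0.078). PTCD3, a small subunit protein, had a log2 fold change of -0.09 (SE 0.078) and AURKAIP1, another, -0.10 (SE 0.092). Among 26 factors of ribosome assembly and rRNA modification, 18 were above 0 and 8 below (median 0.03), and 2 had an unadjusted p under 0.05, which is 7.69% beside the 17.3% of all genes tested. FASTKD2, an RNA-binding protein of mitochondrial RNA granules, was 25.99, 23.3 and 23.6 CPM in sgCtrl against 32.3, 32.1 and 26.6 CPM in sgCOX4I1. Its groups did not overlap, and the log2 fold change of 0.32 (SE 0.10) had an adjusted p of 0.136 in edgeR's quasi-likelihood F test after Benjamini-Hochberg correction. The pseudouridine synthase TRUB2 (0.22, SE 0.078) and the rRNA methyltransferase MRM3 (0.20, SE 0.10) followed by p.

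Of 16 mitochondrial translation factors, 12 were above 0 and 4 below (median 0.07), with 3 at an unadjusted p under 0.05, which is 18.8% beside the 17.3% of all genes tested. GUF1, the back-translocating GTPase, was 50.7, 49.2 and 45.1 CPM in sgCtrl against 57.6, 56.7 and 58.7 CPM in sgCOX4I1 (log2 fold change 0.26, SE 0.078, adjusted p = 0.110, edgeR with Benjamini-Hochberg adjustment). LRPPRC, which stabilises mitochondrial mRNAs, was 446, 385 and 401 CPM against 474, 452 and 485 CPM (log2 fold change 0.20, SE 0.079), and the elongation factor GFM1 had a log2 fold change of 0.21 (SE 0.096). The groups stood apart for GUF1 and LRPPRC and overlapped for GFM1. The 13 mRNAs that these ribosomes translate had a median of 0.08, with 8 above 0 and 5 below. MT-ND3, a Complex I subunit, was 387, 356 and 378 CPM in sgCtrl against 544, 405 and 479 CPM in sgCOX4I1 (log2 fold change 0.35, SE 0.098, adjusted p = 0.0837, edgeR with Benjamini-Hochberg adjustment). MT-ND2 (0.19, SE 0.17) and MT-ND4L (0.19, SE 0.17) had wider errors. The summed level of the 13 mRNAs was instead lowest in #1 and highest in #3 of both groups, at 29654, 39568 and 48527 CPM in sgCtrl against 32504, 36627 and 49199 CPM in sgCOX4I1.

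Of 11 tested regulators of mitochondrial biogenesis, 4 had an unadjusted p under 0.05 (36.4%, beside 17.3% of all genes tested), 3 above 0 and 1 below, and the median over the list was 0.05. NRF1, the factor whose site was counted in the promoters, was 28.6, 31.7 and 30.2 CPM in sgCtrl against 24.0, 23.9 and 23.8 CPM in sgCOX4I1, so the groups stood apart (log2 fold change -0.34, SE 0.091, adjusted p = 0.0750, edgeR with Benjamini-Hochberg adjustment). MYC was 539, 488 and 425 CPM against 606, 581 and 565 CPM (0.27, SE 0.090), and TFAM, which packages and transcribes mitochondrial DNA, was 79.2, 69.6 and 67.1 CPM against 88.1, 80.7 and 79.5 CPM (0.20, SE 0.084). The groups of both stood apart, and TFB2M, a mitochondrial transcription factor, had 0.25 (SE 0.11). The ETS factor subunit GABPA had a log2 fold change of 0.05 (SE 0.080) and YY1 one of -0.11 (SE 0.075). None of the regulators passed the adjusted threshold.

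The cytosolic ribosome was the closest family for comparison. Of its 83 genes, 81 were tested, 27 with a log2 fold change above 0 and 54 below, with a median of -0.02 and a range of -0.15 to 0.19. There were 0 at an adjusted p under 0.05 in edgeR's test and 0 at an unadjusted p under 0.05, and 1 (1.23%) had groups that did not overlap. The mitochondrial and the cytosolic ribosomal protein genes both had smaller shares of genes at an unadjusted p under 0.05, and of genes without overlap, than the 17.3% and 21.6% of all genes tested, and the difference between the families was not tested.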

How the data were processed

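Libraries of Molm13-Cas9 cells were compared, 3 sgCtrl with 3 sgCOX4I1. The deposited table holds unnormalized whole-number counts per gene symbol, and its columns were matched to samples by letter and number (C for sgCtrl, K for sgCOX4I1). The methods name Trimmomatic, Bowtie2 and RSEM on GRCh38.p14, whereas the submitters' processing notes list STAR 2.6.0a, bcl2fastq 2.20.0.422 and edgeR, and the column names also name marked duplicates and HTSeq. The strand setting of the counting is not given in the sources used here. Reads that match several genes may be left out or divided.

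A count of 0 allows up to 0.0972 to 0.174 CPM, from counting error only. Replicates differed beyond sampling noise (chi-square per degree of freedom 9.43 to 23.3). In R 4.3.3, edgeR 4.0.16 was run with TMM factors (0.987 to 1.01), filterByExpr and its quasi-likelihood test, with no covariate, and p-values were adjusted over 11861 genes by Benjamini-Hochberg. Centred log2 CPM used a prior count of 2. Alternatives were DESeq2 1.42.0, limma-voom (limma 3.58.1), DESeq2 size factors, library size alone, no filter, at least 10 counts in every library, corrections for GC content and length (18437 of 19845 symbols matched GENCODE 44), the replicate number as a block, and leaving out each library. Scripts were tested on simulated data.

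The members and the gene lists were chosen with earlier results of these data known. The mitochondrial rRNAs were not analysed here, and 1 marker of other cells is not reported here. Genes were named by rule, namely the 5 smallest p, the 3 highest and 3 lowest fold changes and the 3 highest and 3 lowest levels per length in each subunit, members whose place differs from their symbol, the member that failed the filter, and the 3 smallest p of other lists. MRPL10, MRPL11, MRPL12, MRPL44, MRPL46, MRPL51, MRPL58, TFB2M, GABPA and YY1 were named after their values were seen.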

Additional observations from a re-analysis of the deposited data

How the results depend on the processing

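In the 16 alternatives run, no MRP gene had an adjusted p under 0.05 except with the replicate number as a block, which gave 1 (MRPL24, adjusted p = 0.0345 by edgeR, log2 fold change 0.21), and with the block and a GC correction, which gave 2 (MRPL24, adjusted p = 0.0185 at 0.24, and MRPS12, adjusted p = 0.0215 at 0.21, both by edgeR). Over all alternatives the adjusted p of MRPL24 lay between 0.0185 and 0.531 by edgeR, DESeq2 or limma-voom. The fits with the block gave 1408 and 1380 of all genes at an adjusted p under 0.05 and 57 each with the 2-fold limit. They gave 12 and 13 of the 77 tested members at an unadjusted p under 0.05, against 26.7% and 25.9% of all genes tested. The numbers are not known to pair the libraries: same-numbered libraries correlated in their deviations from the group means at 0.38, -0.02 and 0.29 for #1, #2 and #3 over all genes tested and at 0.59, 0.0092 and 0.56 over the members, and #2 did not correlate best with #2. DESeq2 gave 428 genes at an adjusted p under 0.05. Without the count filter there were 537, and 41 with the 2-fold limit. The GC correction and the length correction each gave 5 members at an unadjusted p under 0.05, against 17.9% and 18.5% of all genes tested.

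Leaving out each library gave 9 (without sgCtrl #2) to 50 (without sgCtrl #3) genes with the 2-fold limit and 24 (without sgCtrl #2) to 561 (without sgCtrl #1) without it. It gave 0 (without sgCtrl #2, sgCtrl #3 or sgCOX4I1 #2) to 8 (without sgCtrl #1) members at an unadjusted p under 0.05. The shares of all genes in these fits were, in that order, 11.4%, 15.3%, 13.9% and 20.4%. Over all fits with a library left out, 15 to 41 MRPL genes were above 0. MRPS18A changed sign to 0.0082 by library size, 0.035 with the GC correction, 0.019 with the length correction and 0.037 with the block and GC correction. With a library left out, MRPS18A ranged from -0.071 to 0.068, MRPL23 from -0.19 to 0.0018, MRPS28 from -0.32 to 0.34, MRPS18C from -0.099 to 0.22 and MRPS36 from -0.0038 to 0.22, none past the threshold. The cause was not tested. The other 403 values kept their direction and side of the threshold or moved by less than the limits set for a change. Depth limits MRPL53, MRPS28 and MRPS24, which had under 100 counts in every library.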
